A study of Mus musculus with 6 samples.

Results

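The sarcoplasmic reticulum genes for calcium release and uptake described here are Atp2a1, Atp2a2, Pln, Sln, Casq1, Casq2, Ryr1, Cacna1s, Jph1 and Pvalb. They were followed through every probe set, the group of short probes on an array that reports on a transcript, whose platform annotation names that gene and no other. This gave 20 probe sets for the 10 genes, out of 34945 single-gene probe sets for 18193 genes. Of the 20, 18 passed the filter on mean signal and were tested, and every gene kept at least 1 tested probe set.

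The samples were quadriceps muscle of male C57/BL6 mice aged 8 weeks, 3 wild-type and 3 ERRγ-transgenic (labelled hSkeletal Actin -ERRg transgenic), with 1 Affymetrix array for each animal. The transgene expresses the orphan nuclear receptor ERRγ (Esrrg) from the α-skeletal actin promoter, a promoter used in skeletal muscle fibres, and the labels do not say how many founder lines were used. The comparison asks how calcium-handling transcripts differ in muscle with a high level of this receptor. The deposited values are MAS5 signals, a linear intensity scaled so that all arrays share 1 trimmed mean.

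In a resting fibre, calcium is held in the sarcoplasmic reticulum by calsequestrins (Casq1, Casq2). Depolarisation is sensed in the transverse tubule by Cacna1s, which opens the release channel Ryr1 across a junction held together by junctophilins such as Jph1. Calcium is then bound in the cytosol of fast fibres by parvalbumin (Pvalb) and pumped back by SERCA1 (Atp2a1, the fast isoform) or SERCA2 (Atp2a2, the slow and cardiac isoform), pumps that phospholamban (Pln) and sarcolipin (Sln) inhibit. Fast and slow fibres use different isoforms of several of these proteins.

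Casq2 was higher and Jph1 was lower in transgenic muscle, and the other 8 genes did not pass the test. Casq2, the slow and cardiac calsequestrin, gave a mean signal 4.55-fold higher in transgenic muscle, and Jph1 one 2.18-fold lower at its brighter probe set. The test was limma on log2(signal + 16) with p-values adjusted by Benjamini-Hochberg across the 26995 probe sets tested, called where under 0.05, and genes were counted at their brightest probe set. So counted, 1 of 10 genes was higher, where 7.65% of all 12529 genes were, and 1 of 10 was lower, where 5.75% were. These shares are near the background, so the counts say nothing particular about these genes as a group. The genotypes did not overlap for 4 of the 10 genes, beside 33.3% of all genes, and before adjustment 5 of the 10 had p under 0.05, beside 27.9% of all genes. Their median log2 difference was 0.14, beside 0.03 over all genes.

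**Figure D1:**
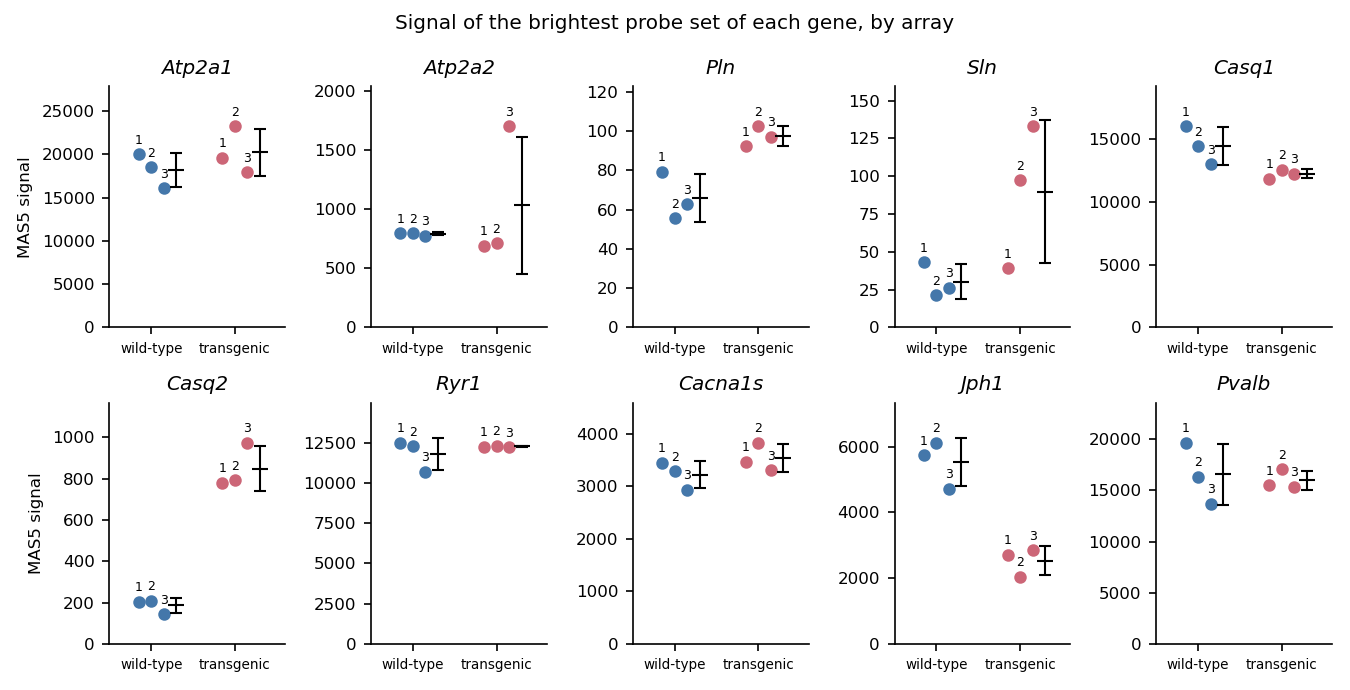
MAS5 signal (linear, axes starting at 0) of the brightest probe set of each of the 10 genes on the 3 wild-type (blue) and 3 transgenic (red) arrays. Numbers give the replicate and black marks the mean ± SD. The genotypes lie apart for Casq2, Jph1, Casq1 and Pln, and for Atp2a2 transgenic 3 at 1701 lies above all other arrays.

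Transcript signals from whole muscle cannot tell fewer cells of a type from less RNA per cell. The transgene was read on all 3 transgenic arrays: the brightest Esrrg probe set gave 71.6, 61 and 24.1 in wild-type muscle and 14427, 13808 and 12697 in transgenic muscle. The dimmer Esrrg probe sets did not pass, at 0.40 and 0.35 (limma adjusted p = 0.284 and 0.443). Which Esrrg transcripts each probe set reads was not analysed here. All 5 skeletal fibre markers (Ckm, Acta1, Ttn, Tnnt3, Mylpf) were bright, with summed signals from 88191 to 116263 in wild-type and from 99071 to 112467 in transgenic muscle. At their brightest probe sets 0 of 5 passed the test. A dimmer Ckm probe set (-0.57, limma adjusted p = 0.0129) and a dimmer Ttn probe set (-0.66, limma adjusted p = 0.00766) passed as lower. The other dimmer Ttn probe sets did not pass. Transgenic 3 stood apart in slow-fibre genes, and wild-type 3 in adipocyte genes. The summed signal of 7 slow-fibre markers (Myh7, Tnnt1, Tnni1, Tnnc1, Myl2, Myl3, Tpm3) was 898.1 to 946.6 in wild-type muscle and 1269, 1823 and 6667 in transgenic 1, 2 and 3. At the brightest probe sets 2 of 7, Myl2 and Tnnt1, passed as higher. Myl3 did not at its brightest (2.15, limma adjusted p = 0.0796), but both dimmer ones passed as higher, at 2.72 and 2.67 (limma adjusted p = 0.0158 and 0.0255). Tnnt1, Myh7, Tnni1 and the dimmest Myl3 probe set passed the filter on signal through the transgenic arrays. Their wild-type means were 13.9, 8.23, 37.1 and 6.27, under the filter of 37.8. The summed signal of 3 adipocyte markers was 24918 on wild-type 3 and 11190 to 16791 on the other arrays, and 0 of 3 passed.

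Of the luminal calcium-binding proteins, Casq2 was measured by 1 probe set. Its signals were 205.3, 208.8 and 145.0 for the wild-type and 779.8, 792.3 and 973.9 for the transgenic arrays. Every transgenic array lay more than 3-fold above every wild-type array, and the 3 transgenic animals lay close to each other. The means were 186.4 ± 35.9 and 848.7 ± 108.6 (SD, n = 3 each), and the log2 difference was 2.10 (SE 0.16, limma adjusted p = 3.48e-05). Casq2 was the 25th largest rise among the 12529 genes. The name of this probe set ends in _s_at, which Affymetrix gives to sets whose probes can match more than 1 transcript, and the annotation names only Casq2 for it.

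The rise of Casq2 did not rest on transgenic 3. Without that array the log2 difference was 2.003 (limma adjusted p = 0.000507), and without both transgenic 3 and wild-type 3 it was 1.85 (limma adjusted p = 0.000159). Casq2 is also abundant in heart, and markers of cardiac muscle were dim. Of 8 cardiac markers (Nppa, Nppb, Myh6, Tnni3, Tnnt2, Mybpc3, Myl7, Myl4), 2 were bright enough to test and 0 passed, none was listed at 0, and their summed signal was 245.2 to 348.3 in wild-type muscle and 298.4 to 378.2 in transgenic muscle. Nppa reached at most 33.5 and Myh6 at most 26.9 on any array. The untested cardiac markers went both ways. Mybpc3 gave 7.4, 3.2 and 5.9 for the wild-type and 31.7, 12.6 and 10.9 for the transgenic arrays, higher without overlap. Nppa gave 33.5, 25.8 and 24.6 against 19.1, 7.3 and 18.2, lower without overlap. Tnni3 gave 4.5, 6.4 and 23.4 against 49.3, 48 and 7.3, and Nppb, Myh6 and Myl7 overlapped too. Myl4 was the brightest cardiac marker, with 123.1 to 137.2 for the wild-type and 169.1 to 208.8 for the transgenic arrays (limma adjusted p = 0.0502).

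Promoter sequences from RefSeq (GRCm38.p6, 250 bases before to 50 after the transcript start) were at hand for 7 of the 10 genes, Casq2 among them, and not for Jph1, Atp2a2 and Sln. The 7 genes had 8 promoters between them. Matches in them are counted by gene, while the shares of all promoters are counted by promoter. The letters TNAAGGTCA, the extended element that ERR receptors bind, were found on neither strand in any of these 7, and in 1.28% of all 32851 promoters. The shorter AGGTCA, which is contained in it, was present in Atp2a1 alone of the 7 and in 16.3% of all promoters. A MEF2 motif, bound by a family of muscle transcription factors, was present in Casq2 and Pvalb and in 3.19% of all promoters, with both strands searched. The stretch of the Casq2 promoter is shown because Casq2 was the member that rose, and those of Pvalb and Atp2a1 as the matches in genes that did not pass. Each is written in the direction of its gene, with the match in capitals.
Casq2, chr3:102086336-102086365, plus strand: attgcatgatTTATTTTTAGctcgaaacaa
Pvalb, chr15:78206561-78206590, minus strand: aggccaagggTTATTAATAGgcctggctca
Atp2a1, chr7:126463159-126463188, minus strand: ccagccaatcccTGACCTggaggaaggggg
The MEF2 match lies 69 to 60 bases before the start of Casq2 and 180 to 171 bases before that of Pvalb. In Atp2a1 the motif lies on the opposite strand, 103 to 98 bases before the start. Such a match describes letters only, and says nothing of whether a factor is bound.

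Casq1, the fast-fibre calsequestrin and a far brighter probe set, had a negative difference that did not pass. Its signals were 16032, 14440.4 and 13005 in wild-type muscle and 11853, 12583 and 12263 in transgenic muscle, so the genotypes did not overlap. The log2 difference was -0.24 (SE 0.10, 95% confidence interval -0.45 to -0.03, limma adjusted p = 0.147). It depended on the scaling of the arrays and on 1 of them. Casq1 passed as lower with median scaling (-0.39, limma adjusted p = 0.0232), with quantile normalization (-0.38, limma adjusted p = 0.00466) and without wild-type 3 (-0.31, limma adjusted p = 0.0386).

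Both calsequestrins were also compared within each array, since the scaling of an array cancels for probe sets well above the added 16 units. Log2 Casq2 minus log2 Casq1 was -6.18, -6.01 and -6.34 on the wild-type arrays and -3.90, -3.96 and -3.63 on the transgenic ones. The values do not give the abundance of one isoform against the other, because different probe sets differ in brightness, and their change, 2.34, is the gap between the changes of both genes. All 3 transgenic values of this ratio lay on 1 side of the wild-type values. The exact two-sided permutation test gave p = 0.1, the smallest that 3 arrays against 3 allow.

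Among the triad proteins, Jph1, which ties the transverse tubule to the sarcoplasmic reticulum, was lower at both of its probe sets. The brighter gave 5738, 6120.3 and 4720.0 for the wild-type and 2709.8, 2042 and 2853 for the transgenic arrays. The dimmer gave 1289.5, 1493 and 1093 in wild-type muscle and 620.9, 468.5 and 572.4 in transgenic muscle. On both, the highest transgenic array lay below the lowest wild-type array, and transgenic 2 was the lowest of all.

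At the brighter Jph1 probe set the means were 5526 ± 723.8 and 2535 ± 432.6 (SD, n = 3 each), and the log2 difference was -1.13 (SE 0.14, limma adjusted p = 0.000737). At the dimmer the means were 1292 ± 199.9 and 553.9 ± 77.9, and the log2 difference was -1.20 (SE 0.15, limma adjusted p = 0.000611). These sizes are closer to each other than either standard error. Jph1 was the 147th largest fall among the 12529 genes. It passed as lower under all 18 alternative settings, with adjusted p from 0.000262 to 0.0196, as did Casq2 as higher, from 1.34e-05 to 0.00364.

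**Figure D2:**
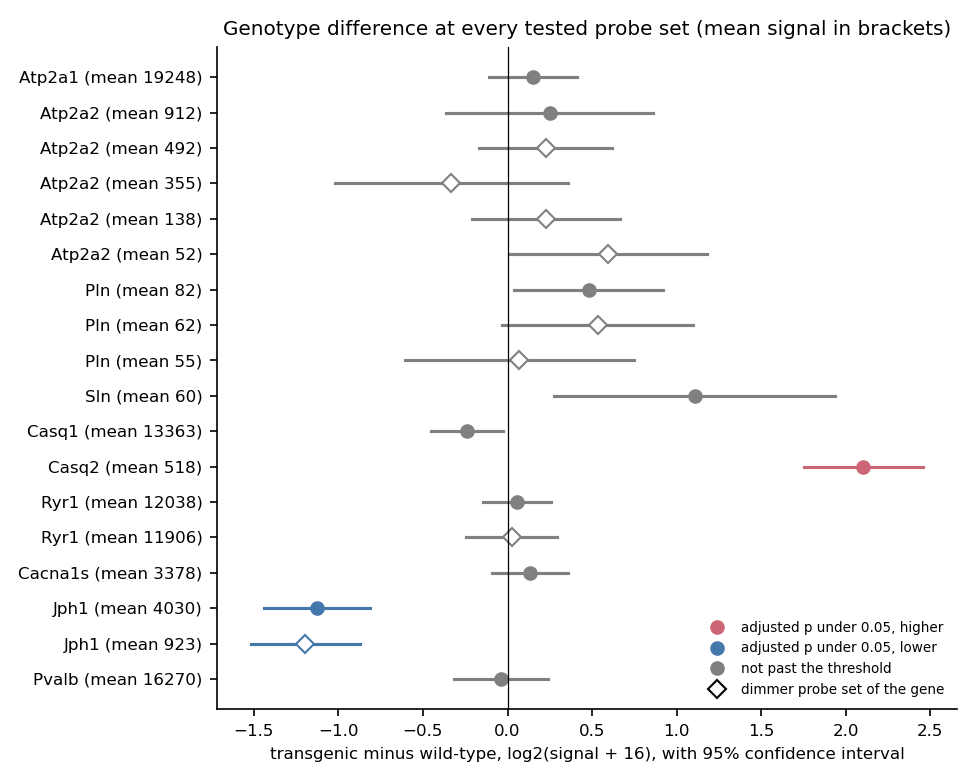
Transgenic minus wild-type difference on the log2(signal + 16) scale at the 18 tested probe sets, with 95% confidence intervals from limma; open diamonds are dimmer probe sets of a gene and the mean signal over 6 arrays is in brackets. Casq2 lies at 2.10 and both Jph1 probe sets lie near -1.1 to -1.2, while the Ryr1, Cacna1s, Pvalb and Atp2a1 intervals span 0.

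The release channel and the voltage sensor did not pass. Ryr1, the skeletal ryanodine receptor, gave 12494, 12263 and 10687 for the wild-type and 12249, 12310.6 and 12226 for the transgenic arrays at its brighter probe set. The transgenic values all fell inside the wild-type range. The log2 difference was 0.06 (95% confidence interval -0.14 to 0.26, limma adjusted p = 0.743), and at the other probe set it was 0.03 (95% confidence interval -0.24 to 0.29, limma adjusted p = 0.924).

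Cacna1s, the pore subunit of the muscle L-type channel that serves as voltage sensor, gave 3448, 3288 and 2933 in wild-type muscle and 3465, 3827 and 3304.5 in transgenic muscle. These ranges overlapped. The log2 difference was 0.13 (95% confidence interval -0.09 to 0.36, limma adjusted p = 0.461). The signs of the Ryr1 and Cacna1s differences turned with median scaling, to -0.10 and -0.02, so neither has a settled direction. Both intervals leave out a difference as large as that of Jph1.

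Pvalb, the calcium buffer of fast fibres, gave 19655, 16338 and 13702 for the wild-type and 15499.7, 17058 and 15369 for the transgenic arrays. The transgenic arrays again lay inside the wild-type range, and the wild-type arrays were the more spread. The log2 difference was -0.04 (95% confidence interval -0.31 to 0.24, limma adjusted p = 0.883), and it was 0.09 without wild-type 1. Wild-type 3 was the lowest wild-type array for 8 of the 10 genes, Pvalb, Jph1 and both calsequestrins included.

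Of the pumps, Atp2a1 is the SERCA isoform of fast fibres. It gave 20041, 18529 and 16111 in wild-type muscle and 19603, 23255 and 17950.2 in transgenic muscle. The genotypes overlapped, with a log2 difference of 0.15 (95% confidence interval -0.11 to 0.41, limma adjusted p = 0.465) that was -0.0027 with median scaling. This was among the brightest signals on the arrays, whose highest values ran from 21878 to 28449. Whether the arrays still respond at such brightness, for Atp2a1 as for Pvalb, Casq1 and Ryr1, was not tested.

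Atp2a2, the SERCA isoform of slow fibres and heart, was measured by 6 probe sets, 5 of them tested, and 0 of 5 passed. The brightest gave 797.5, 798.3 and 775.1 for the wild-type and 689.0, 709.5 and 1700.5 for the transgenic arrays. Transgenic 1 and 2 lay below all wild-type arrays and transgenic 3 lay above them by a factor of more than 2. The means were 790.3 ± 13.2 and 1033 ± 578.2 (SD, n = 3 each), and the log2 difference was 0.25 (SE 0.28, limma adjusted p = 0.626). Without transgenic 3 it turned to -0.17 (limma adjusted p = 0.393).

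The probe sets of Atp2a2 did not all set transgenic 3 apart. That array lay 1.26 above the mean of transgenic 1 and 2 on the log2 scale at the brightest probe set and 1.25 above it at the third brightest, which gave 277.4, 171.5 and 542.4 in transgenic and 344.3, 439.9 and 356.7 in wild-type muscle. At the remaining tested probe sets the same difference was 0.12, 0.13 and 0.12. Of these, the dimmest was the only tested Atp2a2 probe set whose genotypes did not overlap, at 37.3, 32 and 45.9 in wild-type muscle and 78.5, 50.6 and 70.5 in transgenic muscle (log2 difference 0.59, limma adjusted p = 0.189). The untested probe set had signals of 3.1 to 39.5. Which transcripts of Atp2a2 each probe set reads was not analysed here.

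**Figure D3:**
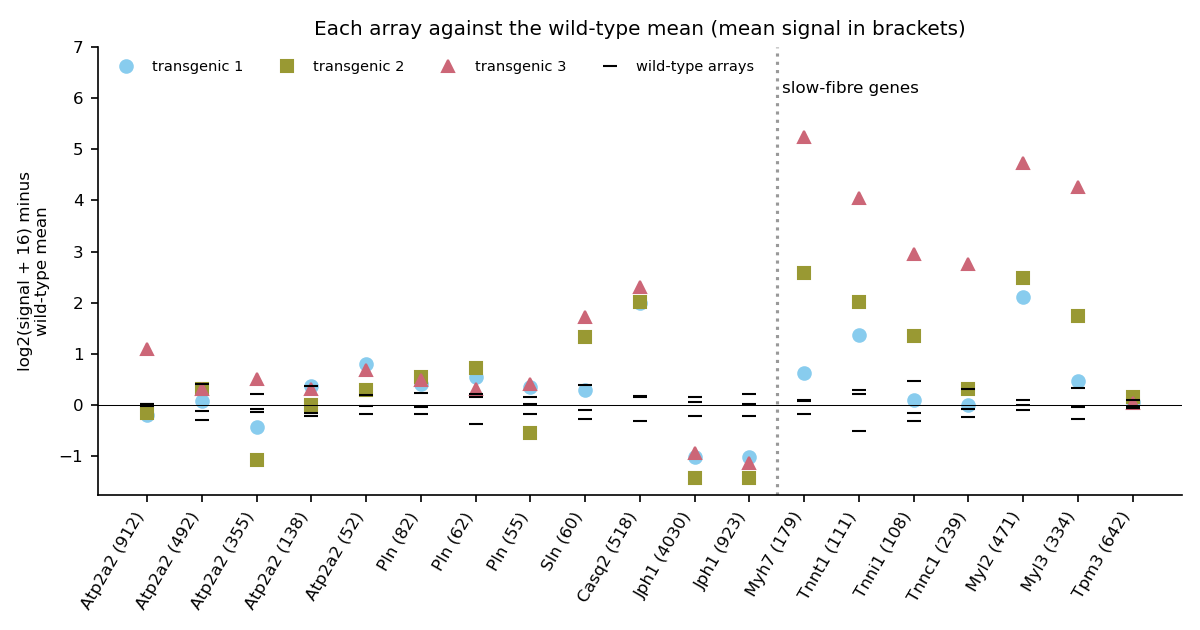
Log2(signal + 16) of each array minus the wild-type mean, for the tested probe sets of Atp2a2, Pln, Sln, Casq2 and Jph1. Right of the dotted line are 7 slow-fibre genes, each at its brightest probe set (mean signal in brackets). Transgenic 3 (triangles) stands above the other transgenic arrays for 6 of the 7 slow-fibre genes, for 2 Atp2a2 probe sets and for Sln, while for Casq2 the 3 transgenic arrays lie together.

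Slow-fibre genes moved with the brightest Atp2a2 probe set on that array. At the brightest probe sets, transgenic 3 was the highest transgenic array for 6 of 7 slow-fibre markers, with Tpm3 the exception. For those 6 it lay 2.23 to 3.64 above the mean of transgenic 1 and 2 on the log2 scale. A dimmer Tpm3 probe set gave 12, 115.9 and 790 in transgenic 1, 2 and 3, and another gave 55.7, 142.8 and 631.7. At the remaining Tpm3 probe sets transgenic 3 was the lowest transgenic array, so the exception depends on the probe set. Myh7, the slow myosin heavy chain, gave 21.4, 129.1 and 900.8 in transgenic 1, 2 and 3, against 5.4 to 9.7 in wild-type muscle. The part of these genes in the Atp2a2 value was not tested. Over all genes transgenic 3 differed from transgenic 1 and 2 by a median of -0.02.

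The change of Atp2a2 against Atp2a1, taken within each array, was within the spread. Log2 Atp2a2 minus log2 Atp2a1 was -4.62, -4.51 and -4.35 on the wild-type arrays and -4.80, -5.00 and -3.39 on the transgenic ones. The mean change was 0.10 (exact two-sided permutation p = 1), and it was -0.41 without transgenic 3. The sign of this change depended on that array.

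The pump inhibitors were dim, and detection calls were not used here, so whether their transcripts were present on an array is not given. Pln, which inhibits SERCA2 in slow fibres and heart, gave 79.2, 55.5 and 62.6 for the wild-type and 92.2, 102.4 and 97.1 for the transgenic arrays at its brightest probe set. The genotypes did not overlap, and the means were 65.8 ± 12.2 and 97.2 ± 5.1 (SD, n = 3 each). The log2 difference of 0.48 (SE 0.20, limma adjusted p = 0.159) did not pass. A dimmer Pln probe set gave 0.53 without overlap (limma adjusted p = 0.220), and the dimmest gave 0.07 with overlap (limma adjusted p = 0.915).

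Sln, a micropeptide inhibitor of SERCA pumps that the mouse expresses mainly in atria and slow muscle, gave 43.1, 21.3 and 26.3 in wild-type muscle and 39.2, 97.2 and 133.1 in transgenic muscle. Transgenic 1 lay inside the wild-type range, and transgenic 2 and 3 lay above it. The means were 30.2 ± 11.4 and 89.8 ± 47.4 (SD, n = 3 each), a ratio of 2.97, and the log2 difference was 1.11 (SE 0.38, limma adjusted p = 0.0866). Without transgenic 1 it was 1.52 and passed (limma adjusted p = 0.020025), and without transgenic 3 it was 0.80 and did not (limma adjusted p = 0.268). Leaving out transgenic 1 removes the transgenic array inside the wild-type range, so the call gained that way adds no support. Sln also passed the filter on mean signal through the transgenic arrays, since its wild-type mean lay under 37.8. The order of the transgenic arrays is that of the slow-fibre sums, 1269, 1823 and 6667, and a link was not tested. Casq2, at 779.8, 792.3 and 973.9, had the same order, as did the brightest and second brightest Atp2a2 probe sets. The other Sln probe set was at 3.6 to 13.8 on all arrays and was not tested.

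Atp2a2 and Pln are also made in smooth muscle. Of 5 smooth muscle markers (Myh11, Acta2, Tagln, Cnn1, Smtn), 4 were tested and 0 passed, none was listed at 0, and their summed signal was 1958 to 2718 for the wild-type and 2592 to 3239.5 for the transgenic arrays. Cnn1, which lay under the filter on signal and was not tested, gave 12.5, 4.9 and 7.5 for the wild-type and 40.6, 40.8 and 47.9 for the transgenic arrays, without overlap. Myh11 and Acta2 had positive differences of 0.62 and 0.36, with unadjusted limma p of 0.0180 and 0.0245 (adjusted p = 0.103 and 0.125). Leukocyte markers summed to 1082 to 1361 and 919.3 to 1297, and Schwann cell and nerve markers to 436.9 to 518.3 and 437.4 to 664.7, wild-type first. Of these, 3 and 2 genes were tested, and 0 passed at their brightest probe sets. A dimmer probe set of the nerve marker Mbp passed as higher (0.65, limma adjusted p = 0.0323). The other dimmer Mbp probe sets did not pass, though those at 0.38 and 0.68 showed no overlap. The part of these cell types in the values of Pln and Atp2a2 was not tested.

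The same pathway was then read in 59 other calcium-handling genes, listed by role from general knowledge of muscle. Of these, 51 had a single-gene probe set and 43 were tested. More of them were lower than higher: 12 of 43 (27.9%) were lower, beside 5.75% of all genes, and 3 of 43 (6.98%) were higher, beside 7.65%. Their median log2 difference was -0.18, beside 0.03 over all genes, and 32 of 43 differences were negative. The list was chosen with earlier results of these data known. The shares therefore describe the listed genes and do not test calcium-handling genes as a group. The count of lower genes was 7 without wild-type 2 and 6 when eBayes was run without the intensity trend, and 18 with median scaling. The count of higher genes was 1 without wild-type 1, wild-type 2 or any 1 of the transgenic arrays.

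**Figure D4:**
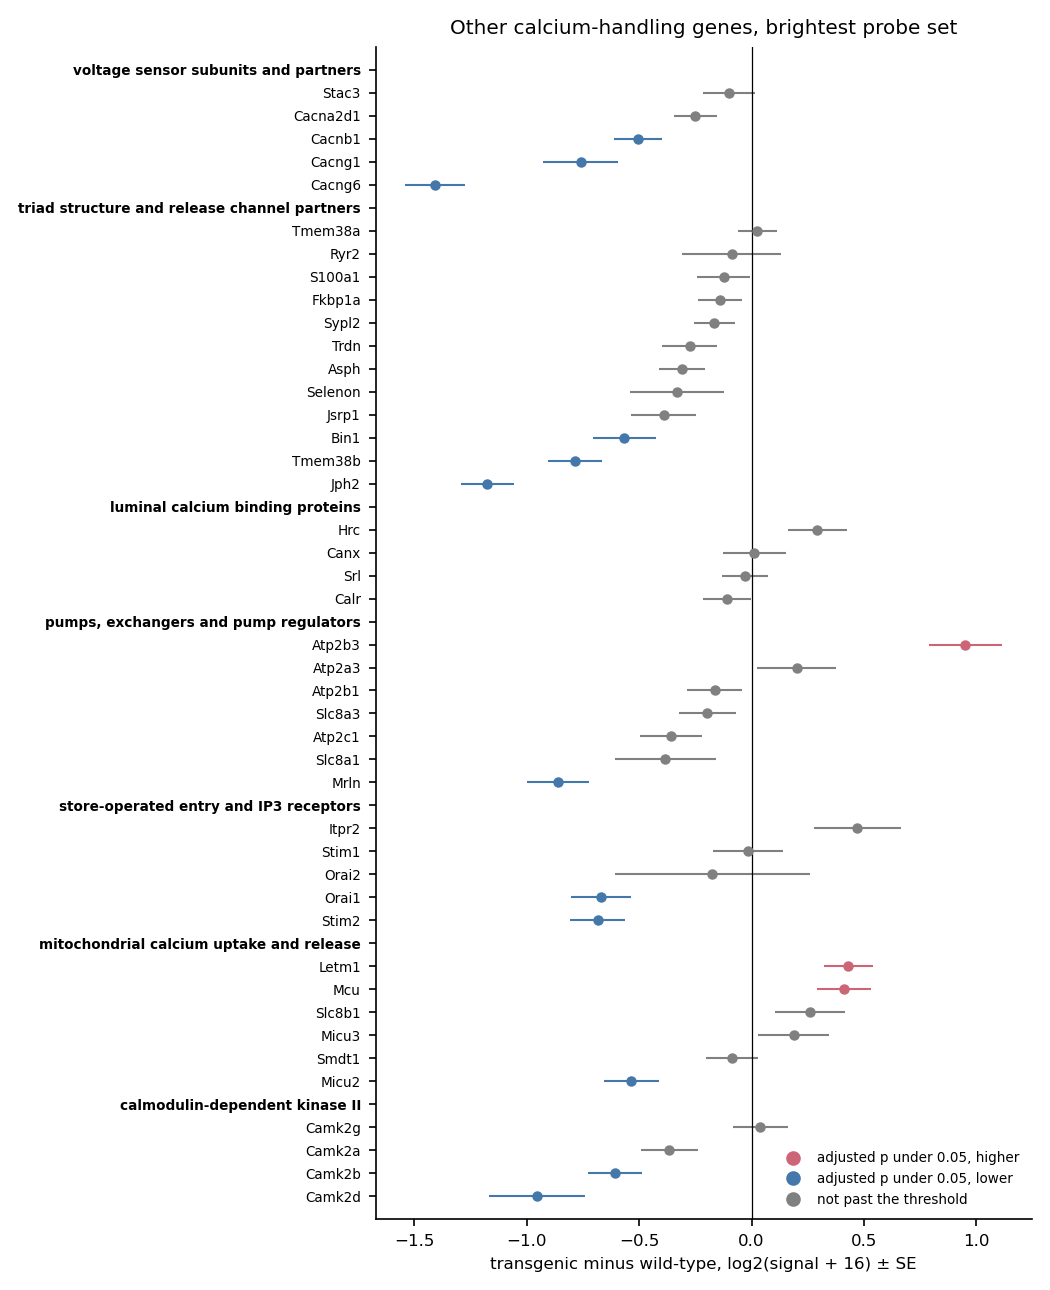
Transgenic minus wild-type difference ± SE on the log2(signal + 16) scale for 43 other calcium-handling genes at their brightest probe set, grouped by role. Blue genes passed as lower (12), red as higher (3) and grey did not pass (28); most blue genes lie in the voltage sensor, triad, store-operated entry and kinase groups.

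Jph2, the other junctophilin tested, was lower as Jph1 was. Its brighter probe set gave 4348.5, 4383 and 3433 in wild-type muscle and 1742, 1937 and 1659 in transgenic muscle. All transgenic arrays lay well below all wild-type arrays, and the log2 difference was -1.18 (SE 0.12, limma adjusted p = 0.000191). The dimmer probe set gave -1.30 (limma adjusted p = 0.000192). Of the 12 triad genes tested, Tmem38b, a cation channel of the reticulum that carries counter-current during release (-0.78, limma adjusted p = 0.00213 and lower at 3 of its 4 probe sets), and Bin1, which shapes the transverse tubule (-0.57, limma adjusted p = 0.0272), were lower too, and 0 were higher. Bin1 did not pass when either wild-type 1 or 2 or either transgenic 2 or 3 was left out (adjusted p from 0.0749 to 0.109), with no filter on signal (0.0642) or with no trend in the eBayes fit (0.114). The other Bin1 probe set tested had a difference of the opposite sign that did not pass, 0.17, and the mean over both was -0.20 (limma adjusted p = 0.404).

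Triadin (Trdn), which links calsequestrin to the release channel, did not pass at its brightest probe set (-0.28, limma adjusted p = 0.186). Of its 5 dimmer probe sets, 3 passed as lower, at -0.66, -0.82 and -0.86 (limma adjusted p = 0.0168, 0.00179 and 0.0313), and the others did not, at -0.24 and -0.61 (0.168 and 0.197). Trdn passed as lower with median scaling, quantile normalization and the mean over probe sets, without wild-type 3, and without wild-type 3 and transgenic 3 together (limma adjusted p from 0.00268 to 0.0458). Triadin has several isoforms, and which of them each probe set reads was not analysed here.

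Of the 5 accessory subunits and partners of the voltage sensor, 3 were lower, and whether they differ from its pore subunit Cacna1s was not tested. Cacng6, a γ subunit, gave 1323, 1378 and 1179.8 for the wild-type and 560.4, 407.9 and 473.4 for the transgenic arrays, the largest fall of the 43 genes at -1.41 (SE 0.13, limma adjusted p = 0.000129). Its other probe set was lower too, at -0.87 (limma adjusted p = 0.0113). The skeletal γ subunit Cacng1 (-0.76, limma adjusted p = 0.0153) and the skeletal β subunit Cacnb1 (-0.50, limma adjusted p = 0.0123) also passed. The other 3 Cacnb1 probe sets did not. The brightest of these had a difference of the opposite sign without overlap, 0.51 (limma adjusted p = 0.0777). The dimmer ones gave -0.09 and -0.03. Leaving out wild-type 1 or 2, or transgenic 2 or 3, took the adjusted p of Cacng1 to between 0.0561 and 0.0715. For Cacnb1 it lay between 0.0503 and 0.0629 when wild-type 1 or 2, or transgenic 1, was left out. Neither Cacng1 nor Cacnb1 passed with an eBayes fit that had no trend (limma adjusted p = 0.0758 and 0.0733), and the mean over the Cacnb1 probe sets differed by -0.03 (limma adjusted p = 0.909). The α2δ subunit Cacna2d1 and the adaptor Stac3 did not pass, at -0.25 and -0.10 (limma adjusted p = 0.129 and 0.646). Of the 4 dimmer Cacna2d1 probe sets, 1 passed as lower (-0.55, limma adjusted p = 0.0284, no overlap). Cacna2d1 also passed as lower with median scaling, quantile normalization, the mean over probe sets, and without wild-type 3 (limma adjusted p from 0.0256 to 0.0448).

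In the pump group, Mrln, which encodes the SERCA inhibitor myoregulin of adult skeletal muscle, was lower. It gave 1810.5, 1853.5 and 1418 in wild-type muscle and 1061.5, 889.8 and 822.1 in transgenic muscle, without overlap, a log2 difference of -0.86 (SE 0.14, limma adjusted p = 0.00266). Atp2b3, a plasma membrane calcium pump, was higher, with 149.2, 178.6 and 117.1 for the wild-type and 316.8, 293.3 and 285.1 for the transgenic arrays (log2 difference 0.95, SE 0.16, limma adjusted p = 0.00404). Its dimmer probe set did not pass (0.24, limma adjusted p = 0.459), and the mean over both was 0.60 (limma adjusted p = 0.0323). The remaining 5 genes of the group, the exchangers Slc8a1 and Slc8a3 among them, did not pass.

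None of the 4 other luminal proteins passed in limma, and 1 of 4 was under 0.05 before adjustment. The histidine-rich calcium binding protein Hrc, the member of this group with the smallest p, gave 5843, 5809.8 and 4303 in wild-type muscle and 7164, 6367 and 5899.9 in transgenic muscle. Its arrays did not overlap, and the log2 difference was 0.29 (SE 0.13, limma adjusted p = 0.191). With the scaling as deposited, Casq2 was the one luminal protein of the 6 tested, both calsequestrins included, that passed.

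Of the store-operated entry genes, Orai1, the pore of the entry channel (-0.67, SE 0.13, limma adjusted p = 0.00923), and Stim2, a reticulum calcium sensor (-0.68, SE 0.12, limma adjusted p = 0.00532), were lower. Each had a dimmer probe set that did not pass, at -0.13 and 0.15. The sensor Stim1 gave -0.02 (limma adjusted p = 0.965). With the mean over probe sets in place of the brightest, neither Orai1 (limma adjusted p = 0.0533) nor Stim2 (limma adjusted p = 0.168) passed, and Orai1 did not pass with no trend (0.0531).

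The calmodulin-dependent kinases Camk2d (-0.95, SE 0.21, limma adjusted p = 0.0162) and Camk2b (-0.61, SE 0.12, limma adjusted p = 0.00836) were lower. Camk2d had an adjusted p of 0.0626 without wild-type 2 and 0.0588 without transgenic 1, and 0.0750 with no trend. Of its 4 other tested probe sets, 1 passed as lower (-0.50), and the others, at -1.29, 0.19 and 0.07, did not. The mean over its probe sets was -0.50 (limma adjusted p = 0.0383). Camk2g did not pass, at 0.04 (limma adjusted p = 0.878). Camk2a did not pass at its brightest probe set (-0.37, limma adjusted p = 0.0921), and its other 4 tested probe sets passed as lower, at -0.62 to -1.30. Camk2a passed with median scaling and with the mean over probe sets (limma adjusted p = 0.0326 and 0.000532).

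In the mitochondrial group, the uniporter pore Mcu (0.41, limma adjusted p = 0.0498) and Letm1 (0.43, limma adjusted p = 0.0288) were higher, and the uniporter regulator Micu2 (-0.54, limma adjusted p = 0.0182) was lower. Mcu and Letm1 passed under 5 and 8 of the 18 alternatives, the fewest of the 15 genes called. Mcu lost its call whichever of the 6 arrays was left out (adjusted p from 0.0676 to 0.159). Letm1 did not pass without wild-type 1, wild-type 2 or any 1 of the transgenic arrays (0.0652 to 0.109), nor did Micu2 without wild-type 2, transgenic 1 or transgenic 2 (0.0592 to 0.0814) or with no trend (0.0670). Of the 15 calls, 6 passed under all 18 alternatives, those of Jph2, Cacng6, Tmem38b, Mrln, Camk2b and Atp2b3.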

How the data were processed

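Signal intensity on a linear scale is what the authors deposited, computed with MAS5 according to the submitters' processing notes, which were read here without a version or settings. RNA came from a Trizol extraction and was labelled with biotin, per the labels' protocols. Log2(signal + 16) was taken with no further normalization. Control probe sets (64 of 45101) were left out, and those with a mean signal above the 40th percentile, 37.8, were tested, 26995 in all. limma 3.58.1 (R 4.3.3) compared the genotypes by lmFit and eBayes with a trend on intensity, two-sided, adjusting p by Benjamini-Hochberg over these probe sets. The brightest single-gene probe set stood for a gene. The test was tried on simulated data. Members, gene lists and alternatives (scaling, offset, filter, arrays used, array weights, variance model, probe set rule, replicate block) were chosen with earlier results of these data known. The rule for other genes named was the 10 largest changes among those called, plus the smallest p in a role group without a call. Bin1, Cacnb1, Mcu, Letm1, Micu2, genes that did not pass and dimmer probe sets were named after their values were seen. The titles call the animals biological replicates, and 3 arrays per genotype limit the precision. Plots used matplotlib 3.10.9 in Python 3.11.15.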

Additional observations from a re-analysis of the deposited data

How the results depend on the processing

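The calls of Casq2 and Jph1 held under all 18 alternatives. The 8 calcium-cycling genes not called gained a call in 4 of 142 comparisons with an alternative. The 15 called genes of the other list lost their call in 50 of 270 comparisons, 13 of them for Mcu, 10 for Letm1, 7 for Bin1, 5 each for Cacng1 and Cacnb1 and 4 for Micu2. The 28 genes of that list not called gained a call in 17 of 501. Median scaling moved the median of all genes from 0.03 to -0.11 and the share of probe set calls that were higher from 55.2% to 28.9%, and quantile normalization gave 51.3%. Lower members numbered 2 in place of 1 with median scaling and with quantile normalization. Higher genes of the other list numbered 1 in place of 3 with median scaling, eBayes without the trend, the replicate block, the mean over probe sets, and without wild-type 3 and transgenic 3 together. Without the trend, 1584 probe sets in place of 3115 and 6 lower genes of that list in place of 12 were called. The Casq2 against Casq1 change of 2.34 was 2.11 with offset 64 and 2.16 without wild-type 3 and transgenic 3. With each array left out in turn, called probe sets ran from 1705 to 3301, higher members from 1 to 2, lower members from 1 to 2, higher genes of the other list from 1 to 2, lower ones from 7 to 15, the Casq2 against Casq1 change from 2.24 to 2.43 and that of Atp2a2 against Atp2a1 from -0.41 to 0.40. The labels state no pairing of same-numbered animals. Correlations of their deviations were 0.07, -0.08 and -0.02, and those of differently numbered animals ran from -0.09 to 0.11. With 3 arrays a genotype these values cannot settle whether animals were paired. The replicate block gave 2744 probe sets. The cause of these shifts was not tested. Pln, Sln and the dimmer Atp2a2 probe sets lie near the filter and the added 16 units, which limits their precision.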
